A study of Mus musculus with 39 samples.

Results

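RNA labelled for 4 days inside the animal and pulled down from mouse hindlimb muscle was compared with the total RNA of isolated muscle stem cells. The comparison was followed over the genes whose mean level in whole muscle was less than 2 times that in the isolated cells. This rule took 11949 of the 16979 genes in the table, or 70.4%. The ratio of the closest genes inside it was 1.99985 for Snx16 and 1.99957 for Dynlt3, and outside it 2.00064 for Ppil2 and 2.00082 for Tor4a. The rule read the isolated cells and whole muscle but not the labelled RNA. A gene could enter only if the isolated cells were not far below whole muscle, so the rule partly fixes the direction of a comparison with either of those groups.

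TU_4d held 4 libraries of 4tU-tagged RNA from Pax7CreER/+: UPRTHA/+ mice that were injected with 4-thiouracil (4tU) at intervals of 12 hours over 4 days. Cre under Pax7 control acts in muscle stem cells, and UPRT is an enzyme that lets a cell put this uracil analogue into new RNA. Input_MuSC held 4 libraries of total RNA from purified muscle stem cells (MuSCs), after an isolation of about 6 hours. The sample labels give it no 4tU, while the protocol text adds 4tU during isolation, and its total RNA was not pulled down. No inhibitor was used on it. MuSC_ctrlAM held 4 libraries of MuSCs that were given DMSO during isolation as the control of an inhibitor experiment. Input_muscle held 4 libraries of total hindlimb muscle RNA, the kind of material from which the tagged RNA was pulled down. The labels state the genotype for the injected mice and not for each of these 3 groups. The labels name neither the animals behind each library nor a batch, so a p-value here covers only differences among these libraries, which may be technical. All libraries were primed with oligo(dT) and read polyadenylated RNA.

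MuSCs, or satellite cells, lie between a muscle fibre and its basement membrane and rest there until injury calls on them. Pax7 marks them, and Notch signalling, calcitonin receptor signalling and a collagen-rich niche are known to hold them at rest. Taking tissue apart with enzymes is itself a stimulus: immediate early genes such as Fos and Egr1, heat shock genes and NF-kB targets are known to respond to it within minutes to hours. A label given in the animal is taken up into RNA made before that stimulus, and the comparison sets isolated cells beside it.

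The submitters labelled TU_4d as skeletal muscle stem cells, but its fibre markers stood at the level of whole muscle. The summed level of 38 muscle fibre genes was 203500 to 217100 RPKM (read counts divided by gene model length and by library depth) in TU_4d, against 407 to 716 RPKM in Input_MuSC. It was 392 to 556 RPKM in MuSC_ctrlAM and 204800 to 215700 RPKM in Input_muscle. Endothelial genes summed to 1830 to 1902 RPKM in TU_4d and 247 to 269 RPKM in Input_MuSC. Immune genes summed to 928 to 992 RPKM in TU_4d and 89.6 to 94.9 RPKM in Input_MuSC, and red blood cell genes to 3533 to 4039 RPKM in TU_4d and 32.2 to 36.9 RPKM in Input_MuSC. No gene of these marker lists had a group mean of 0. TU_4d is therefore called tagged RNA of hindlimb muscle below. The level in Input_muscle is given beside many of the genes, and in such bulk samples fewer cells of a type and less RNA per cell cannot be told apart. The part that fibre and other cells played in the comparisons was not tested. Worked back from RPKM, the depth was 40385703 to 65442116 reads per TU_4d library, 15307952 to 22408295 for Input_MuSC, 24189620 to 33255988 for MuSC_ctrlAM and 41068178 to 102619074 for Input_muscle.

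Most of the chosen genes were lower in the tagged RNA than in isolated MuSCs. Of 9906 that passed the filter of 1 RPKM in at least 3 of the 8 libraries, 7545 were lower and 1592 higher at an adjusted p under 0.05 (limma). These are 76.17% and 16.07% of them, against 51% lower and 43.6% higher over all 14845 genes tested. The other 2043 chosen genes were below the filter. The median log2 change was -0.92 for the chosen genes and -0.18 for all tested genes. A change of at least 2-fold was seen for 4622 lower and 278 higher genes, and 218 were at least 10-fold lower. A gene could pass the filter through the isolated cells alone, and its TU_4d level was then low by construction. This holds for 3850 of the genes tested, for 3008 of the 4622 (65.1%) and for 95 of the 218. Among genes named below these include Fam132b, Fosb, Egr2, Nfkbiz, Spry4, Pax7, Calcr, Notch1 and Per2. The calls and adjusted p of such genes are given as description only. Nothing is read from the imbalance of these counts. The filter also acts within the gene lists below, where fewer genes passed it against Input_muscle than against Input_MuSC. The numbers were 19 and 26 for satellite cell, 31 and 37 for immediate early and 10 and 15 for Notch genes. They were 22 and 26 for NF-kB and cytokine, 8 and 12 for ERK feedback and 12 and 17 for cell cycle genes. List counts and medians thus hold genes whose TU_4d level was low by construction. The split of the chosen genes rests on the scaling, since the authors' scaling and other choices place the middle of the data at different points. With scaling factors taken from the chosen genes alone, which moves the median of all tested genes up by 0.99, 4503 were lower and 4430 higher. With library sizes from all reads, which moves it down by 1.23, 9649 were lower and 114 higher. A fall of several log2 units is beyond these shifts, and one of 1 unit or less is not.

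**Figure D1:**
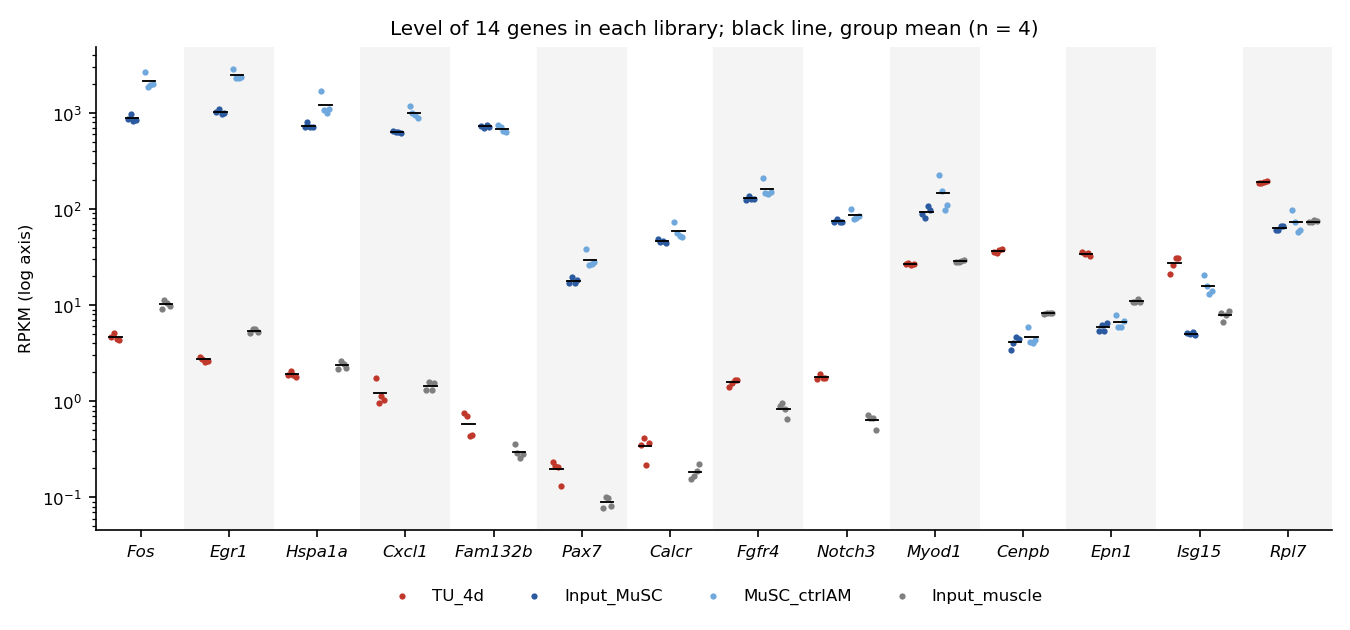
RPKM on a log axis of 14 genes in the 4 libraries of TU_4d, Input_MuSC, MuSC_ctrlAM and Input_muscle, with a black line at each group mean. In the fit, Fos, Egr1, Hspa1a, Cxcl1 and Fam132b were 171-fold to 675-fold lower in TU_4d than in Input_MuSC, while Cenpb, Epn1, Isg15 and Rpl7 were 3.01-fold to 8.02-fold higher. The fit adds 0.5 RPKM, so gaps drawn for low genes are wider than these folds.

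Immediate early genes were among those with the largest falls. Of the 37 listed genes tested, 35 were lower in the tagged RNA and 2 higher, with a median log2 change of -3.13, against -0.92 for all chosen genes. Fos (chr12:85473890-85477273 on the plus strand of mm10), a subunit of the transcription factor AP-1, had 4.67, 5.10, 4.43 and 4.32 RPKM in TU_4d and 861, 978, 815 and 848 RPKM in Input_MuSC. The groups lay far apart, and the fall was 171-fold (log2 change -7.42 ± 0.06 SE, adjusted p = 9.9e-16). Its level in Input_muscle was 10.2 ± 0.908 RPKM (SD, n = 4), above every TU_4d library. Egr1, a zinc finger transcription factor, had 2.91, 2.75, 2.58 and 2.65 RPKM in TU_4d and 1015, 1109, 968 and 997 RPKM in Input_MuSC, a 317-fold fall. Its relative Egr2 fell 70.9-fold. Fosb, a partner of the Jun proteins, averaged 0.247 ± 0.0633 RPKM in TU_4d and 311 ± 19.2 RPKM in Input_MuSC. Jun itself fell less, to 45.1 ± 2.40 RPKM in TU_4d against 418 ± 38.1 RPKM in Input_MuSC, or 9.16-fold. The 2 genes that rose, named after their values were seen, were Klf2, a factor known from endothelial cells, with 22.4 RPKM in TU_4d and 6.62 RPKM in Input_MuSC, and Srf, which drives many immediate early genes, with 19.1 and 7.11 RPKM. Neither of these rises passed the test with library sizes from all reads.

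Feedback inhibitors of the ERK pathway, which growth factor signalling switches on, were also lower. Of 12 tested, 11 were lower and 1 higher, with a median log2 change of -1.89. Errfi1, an inhibitor of the EGF receptor, had 15.0, 13.6, 15.7 and 14.2 RPKM in TU_4d and 432, 439, 443 and 425 RPKM in Input_MuSC. No library of either group came near the other, and the fall was 28.8-fold. Spry4, a Sprouty protein that restrains receptor tyrosine kinases, fell 11.1-fold, and Dusp1, a phosphatase of MAP kinases, 3.91-fold. Dusp1 was also lower than in Input_muscle, at 29.1 ± 0.915 RPKM in TU_4d and 78.9 ± 5.71 RPKM in Input_muscle (log2 change -1.42).

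Heat shock genes, whose products refold damaged proteins, fell by amounts that differed widely within the list. Of 18 tested, 17 were lower and 1 higher, with a median log2 change of -1.82. With scaling factors from the chosen genes alone 12 were lower and 5 higher, with a median of -0.78. Hspa1a (chr17:34969199-34972154 on the minus strand of mm10), the inducible Hsp70, had 1.89, 2.04, 1.89 and 1.79 RPKM in TU_4d and 719, 795, 710 and 719 RPKM in Input_MuSC. The fall was 306-fold (log2 change -8.26 ± 0.05 SE, adjusted p = 3.77e-16), and the TU_4d libraries stood close to the 2.36 ± 0.206 RPKM of Input_muscle. Its near copy Hspa1b fell 532-fold, and because the 2 genes are so alike their shares of the reads are uncertain. Dnajb1, an Hsp40 that hands clients to Hsp70, had 10.3, 10.3, 9.48 and 10.3 RPKM in TU_4d and 1522, 1693, 1469 and 1504 RPKM in Input_MuSC, a 146-fold fall. Hspa5, the Hsp70 of the endoplasmic reticulum, averaged 77.9 RPKM in TU_4d and 1388 RPKM in Input_MuSC. Hsf1, the factor that switches these genes on, was the 1 that rose (2.16-fold), a rise that turned to a fall under library sizes from all reads.

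NF-kB factors and the cytokines they control fell almost without exception. Of 26 tested, 25 were lower and 1, the inhibitor Nfkbib, was higher, by 0.25 on the log2 scale, which turned to a fall with library sizes from all reads. The list median was -2.75. Cxcl1 (chr5:90891241-90893115 on the plus strand of mm10), a chemokine that draws neutrophils, had 1.73, 0.948, 1.13 and 1.04 RPKM in TU_4d and 642, 633, 635 and 619 RPKM in Input_MuSC. The groups were 375-fold apart (log2 change -8.55 ± 0.11 SE, adjusted p = 9.43e-15). Nfkbiz, a nuclear cofactor of NF-kB, had 0.833, 0.846, 0.912 and 0.746 RPKM in TU_4d and 55.2, 56.8, 51.8 and 50.4 RPKM in Input_MuSC, a 40.5-fold fall. Il6, an inflammatory cytokine, averaged 1.36 ± 0.180 RPKM in TU_4d, 28.3 ± 1.78 RPKM in Input_MuSC and 0.373 ± 0.0831 RPKM in Input_muscle. It was 1 of the 5 genes, among 22 of this list tested, that were higher in TU_4d than in Input_muscle (log2 change 1.09, adjusted p = 9.89e-08). Il6 passed the filter there through TU_4d alone, so its Input_muscle level was low by construction.

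The promoters of these genes were read to show which letters they carry next to the start of transcription. The 3 below are RefSeq windows of 300 bases on GRCm38.p6 around the start of transcription, 1 from each of 3 lists, printed 5′ to 3′ on the gene's own strand. Capitals mark the heat shock element GAANNTTC in Hspa1a (chr17:34972107-34972406, minus strand), the NF-kB motif, GGG and TTCC with 3 bases between them on either strand, in Cxcl1 (chr5:90890995-90891294, plus strand) and the interferon element, GAAA repeated after 2 bases on either strand, in Isg15 (chr4:156200769-156201068, minus strand), an interferon-stimulated gene described further on.
Hspa1a: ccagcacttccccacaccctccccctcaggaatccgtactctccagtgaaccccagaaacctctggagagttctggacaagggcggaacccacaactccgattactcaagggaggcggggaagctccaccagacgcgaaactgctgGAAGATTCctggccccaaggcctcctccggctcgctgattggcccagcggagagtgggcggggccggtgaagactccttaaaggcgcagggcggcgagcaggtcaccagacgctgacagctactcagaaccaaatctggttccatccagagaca
Cxcl1: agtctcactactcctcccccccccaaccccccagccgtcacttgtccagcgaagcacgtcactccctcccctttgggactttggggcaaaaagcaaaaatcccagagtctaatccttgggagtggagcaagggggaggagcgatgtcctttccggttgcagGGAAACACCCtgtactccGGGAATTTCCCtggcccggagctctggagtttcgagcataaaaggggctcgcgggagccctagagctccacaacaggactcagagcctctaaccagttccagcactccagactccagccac
Isg15: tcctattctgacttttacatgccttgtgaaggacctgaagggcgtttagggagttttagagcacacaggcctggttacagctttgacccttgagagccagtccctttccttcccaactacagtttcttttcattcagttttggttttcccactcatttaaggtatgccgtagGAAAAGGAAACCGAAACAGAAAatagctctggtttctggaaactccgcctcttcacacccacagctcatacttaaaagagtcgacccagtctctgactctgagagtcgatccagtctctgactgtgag
Hspa1a held 1 match, Cxcl1 3, of which 2 overlap each other, and Isg15 3 that overlap in a chain. Over all 27025 genes with a promoter in the table, 9.036% held the heat shock element on either strand, 6.305% the NF-kB motif and 3.993% the interferon element. Among tested list members with a promoter in the table, 8 of 14 heat shock genes (57.14%) held the heat shock element and 11 of 19 NF-kB and cytokine genes (57.89%) the NF-kB motif. Of 27 immediate early genes, 3 held a CArG box, 2 the cyclic AMP element TGACGTCA and 2 the AP-1 motif TGANTCA, against 1.806%, 2.031% and 8.973% of all genes. These are letter matches, and binding was not measured.

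The integrated stress response, in which Atf4 answers to unfolded protein and amino acid shortage, showed no common direction beyond the general one. Of 15 genes tested, 11 were lower and 3 higher, with a median of -0.62, which became 0.31 with scaling factors from the chosen genes alone. Trib1, a pseudokinase, had 2.66, 2.20, 2.49 and 2.30 RPKM in TU_4d and 96.4, 99.3, 97.5 and 96.9 RPKM in Input_MuSC. That was a 33.7-fold fall, with every TU_4d library near the 2.28 ± 0.158 RPKM of Input_muscle. Ppp1r15a, a phosphatase subunit that ends the response, fell 19.9-fold. Atf5, a mitochondrial stress factor, rose to 11.9 RPKM in TU_4d against 3.76 RPKM in Input_MuSC and also stood above the 3.18 RPKM of Input_muscle.

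Satellite cell markers were lower in the tagged RNA as well. Of 26 tested, 25 were lower and 1, the cadherin Cdh4, higher, with a median log2 change of -3.26. Of these genes 19 passed the filter against Input_muscle, and Pax7 and Calcr passed it here through the isolated cells alone. The Cdh4 rise turned to a fall under library sizes from all reads. Pax7 (chr4:139737062-139833528 on the minus strand of mm10) had 0.234, 0.214, 0.205 and 0.130 RPKM in TU_4d and 16.99, 19.4, 16.9 and 18.2 RPKM in Input_MuSC. The fall was 26.4-fold (log2 change -4.72 ± 0.06 SE, adjusted p = 1.89e-14), an understatement at such a low level because 0.5 RPKM was added before taking logs. Input_muscle held 0.0889 ± 0.0118 RPKM of Pax7, and each TU_4d library was above each Input_muscle library. Pax7 was under the filter in that comparison, and without the filter its log2 change against Input_muscle was 0.24 (adjusted p = 9.7e-04).

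Calcr, the calcitonin receptor of resting MuSCs, had 0.350, 0.417, 0.220 and 0.371 RPKM in TU_4d and 48.4, 45.7, 46.8 and 43.8 RPKM in Input_MuSC, a 55.8-fold fall. Input_muscle held 0.182 ± 0.0289 RPKM of it. Myf5, the first of the myogenic factors in these cells, had 1.48, 1.47, 1.48 and 0.611 RPKM in TU_4d, with replicate 4 apart from the rest, and 73.9, 86.5, 71.6 and 72.1 RPKM in Input_MuSC. Against the 1.58 ± 0.0316 RPKM of Input_muscle Myf5 was not called (log2 change -0.28, adjusted p = 0.112). Fgfr4, a receptor for fibroblast growth factors, had 1.40, 1.56, 1.67 and 1.65 RPKM in TU_4d and 125, 136, 128 and 127 RPKM in Input_MuSC. Its TU_4d libraries were all above the 0.832 ± 0.130 RPKM of Input_muscle (log2 change 0.64, adjusted p = 5.16e-06). Every Input_muscle library was under 1 RPKM, so Fgfr4 passed the filter there through TU_4d alone. Vcam1, an adhesion receptor, was lower than in whole muscle, with 3.0005 ± 0.170 RPKM in TU_4d against 5.83 ± 0.267 RPKM in Input_muscle and 141 ± 3.82 RPKM in Input_MuSC. Over the 19 satellite cell genes tested against whole muscle, 5 were higher and 9 lower in the tagged RNA, with a median of -0.27, against -0.08 for the 6345 chosen genes tested there. Of those 6345, 35.74% were higher and 46.64% lower. The satellite cell counts were 8 higher and 7 lower with median-of-ratios factors over all genes, and 8 and 8 with library sizes from all reads.

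Notch genes, which keep MuSCs at rest, were lower in 14 of 15 cases, with a median of -2.25. Notch3 (chr17:32120820-32166880 on the minus strand of mm10), a receptor of MuSCs and of pericytes, had 1.70, 1.92, 1.73 and 1.75 RPKM in TU_4d and 74.1, 77.8, 72.6 and 73.8 RPKM in Input_MuSC, 33.02-fold apart. It was above Input_muscle in all 4 libraries, which averaged 0.641 ± 0.0927 RPKM there (log2 change 1.00, adjusted p = 2.46e-08). Every Input_muscle library was under 1 RPKM, so Notch3 passed the filter there through TU_4d alone. Heyl, a repressor that Notch switches on, had 1.65, 1.58, 1.46 and 1.53 RPKM in TU_4d and 72.3, 77.4, 70.6 and 69.9 RPKM in Input_MuSC. Heyl was below the 2.05 ± 0.108 RPKM of Input_muscle (log2 change -0.31, adjusted p = 1.10e-04), which lost its call under median-of-ratios factors over all genes. Rbpj, the DNA-binding partner of active Notch, and the receptor Notch1 fell by 2.42 and 2.77 on the log2 scale. Dll4, a ligand known from vessels, was the 1 that rose, by 0.59 on the log2 scale, and it fell with library sizes from all reads.

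Genes of the niche and its matrix were lower in 22 of 25 cases, with a median of -1.90. With scaling factors from the chosen genes alone 16 were lower and 7 higher, with a median of -0.85. Col4a1, a collagen of basement membranes, had 16.9, 16.8, 16.9 and 16.8 RPKM in TU_4d and 159, 161, 163 and 160 RPKM in Input_MuSC, 9.30-fold apart with little spread in either group. Its level in Input_muscle, 13.1 ± 0.604 RPKM, was below TU_4d (log2 change 0.36, adjusted p = 2.36e-06), though not with all groups in 1 fit. Col5a3, part of the collagen V that MuSCs make under Notch, averaged 6.71 ± 0.240 RPKM in TU_4d, 44.0 ± 0.516 RPKM in Input_MuSC and 3.65 ± 0.1995 RPKM in Input_muscle. Lama2, the laminin chain of the muscle basement membrane, fell 8.26-fold. Gpc1, a heparan sulfate proteoglycan, was among the 3 that rose, with 98.5 RPKM in TU_4d and 26.6 RPKM in Input_MuSC. Against whole muscle 13 of 23 matrix genes tested were higher and 9 lower, or 15 and 2 with median-of-ratios factors over all genes. Of all chosen genes tested there 35.74% were higher and 46.64% lower, and those factors turned them to 3169 higher and 2078 lower. In BMP signalling, 12 of 16 genes were lower and 3 higher, with a median of -1.15. This stands beside 76.17% lower and a median of -0.92 over all chosen genes tested. With scaling factors from the chosen genes alone 8 of the BMP genes were lower and 7 higher, with a median of -0.23. Bmp4, a ligand, had 3.39, 3.15, 2.75 and 3.10 RPKM in TU_4d and 28.2, 28.5, 28.9 and 28.4 RPKM in Input_MuSC. Id3, a target of the pathway, fell 6.54-fold, while Smad4, the shared partner of its receptor-regulated Smads, was 3.88-fold higher, at 12.4 ± 0.655 RPKM in TU_4d and 2.84 ± 0.315 RPKM in Input_MuSC.

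Several secreted peptides had some of the widest gaps of all. Fam132b (chr1:91366430-91374216 on the plus strand of mm10), which encodes the iron hormone erythroferrone, had 0.755, 0.696, 0.435 and 0.443 RPKM in TU_4d and 732, 703, 751 and 710 RPKM in Input_MuSC. By the fitted log2 change, which adds 0.5 RPKM, this was the largest called fall among the chosen genes ranked (675-fold, log2 change -9.40 ± 0.09 SE, adjusted p = 1.65e-15). Ranked were genes whose symbol is not a model number, with 5 RPKM or more in the higher group. Fam132b passed the filter through Input_MuSC alone, so its TU_4d level was low by construction and its adjusted p is no support. Nppc, the precursor of C-type natriuretic peptide, had 2.07, 2.02, 1.44 and 1.47 RPKM in TU_4d and 586, 627, 575 and 586 RPKM in Input_MuSC. Gal, the precursor of the neuropeptide galanin, had 1.88, 2.12, 1.51 and 3.18 RPKM in TU_4d and 549, 557, 561 and 566 RPKM in Input_MuSC. All 3 had levels in Input_muscle of 4.14 RPKM or less, so the isolated cells were the group that stood apart. Chrdl2, a secreted BMP antagonist, fell 133-fold and Chodl, a membrane lectin, 104-fold.

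The remaining lists had medians of -0.99 to -0.42 over the listed genes that the rule kept and the filter passed. Over all chosen genes tested, 76.17% were lower and 16.07% higher, with a median of -0.92. Nothing is read from list counts near those shares. Myod1, the myogenic factor that marks activated MuSCs, had 26.9, 27.4, 26.4 and 27.1 RPKM in TU_4d and 89.6, 80.3, 106 and 98.7 RPKM in Input_MuSC, a 3.42-fold fall with no overlap. Input_muscle held 28.5 ± 0.499 RPKM of it. Of 5 myogenic genes tested, 3 were lower and 2 higher (median -0.99), while all 14 listed myogenic genes in the table, 7 of them outside the rule, summed to 1320 to 1376 RPKM in TU_4d and 256.6 to 305 RPKM in Input_MuSC. Cell cycle genes were lower in 13 of 17 cases (median -0.86), among them Mcm4 of the replicative helicase, 7.74-fold. In the list of cyclins and their inhibitors 7 of 10 were lower (median -0.53), and Cdkn1a, the inhibitor p21, fell 2.98-fold. All 15 genes of that list, with those the rule left out, summed to 498.5 to 545 RPKM in TU_4d and 208.8 to 220.8 RPKM in Input_MuSC. Ribosome biogenesis genes were lower in 16 of 23 cases (median -0.77), among them Nop58, a core protein of small nucleolar ribonucleoproteins, 13.5-fold. Glucocorticoid and FoxO targets were lower in 12 of 13 cases (median -0.72), with a 9.19-fold fall of the metallothionein Mt2. The 1 that rose was Foxo4, at 3.54 RPKM in TU_4d and 0.309 RPKM in Input_MuSC. Circadian genes were lower in 11 of 16 cases (median -0.42), with Per2 6.57-fold and Per1 4.06-fold lower. The medians of all 6 lists turned positive, to between 0.03 and 0.58, with scaling factors from the chosen genes alone.

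**Figure D2:**
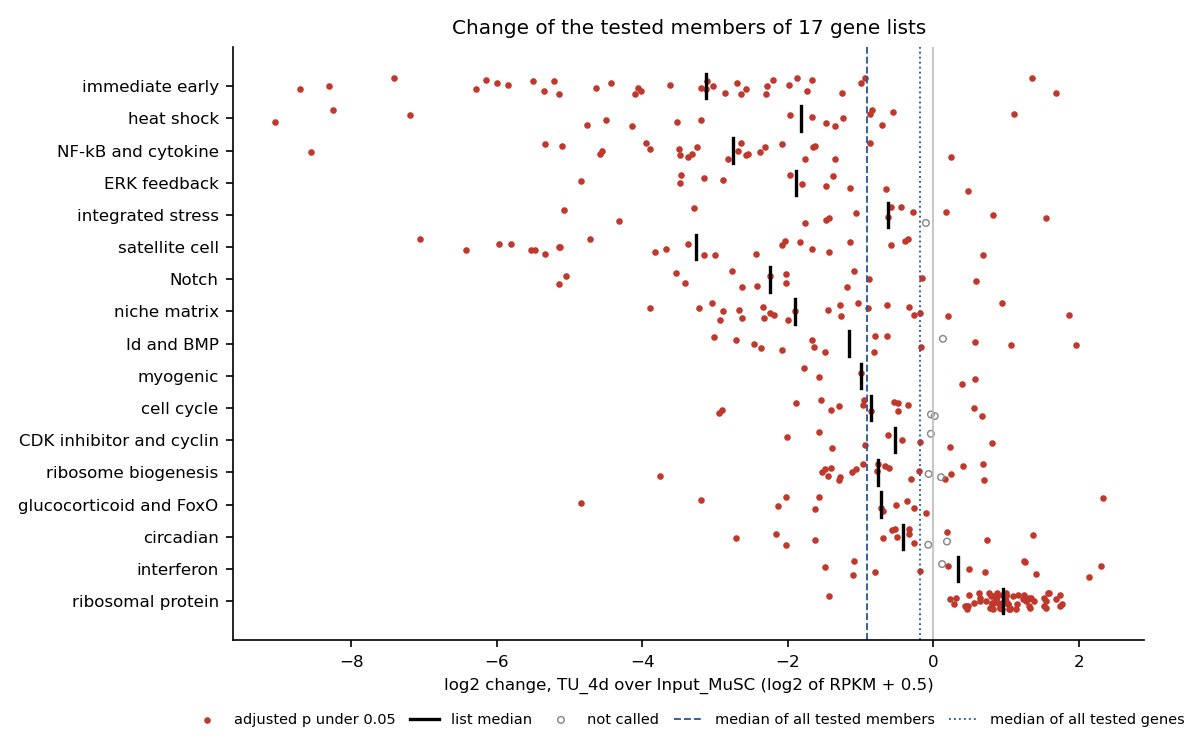
Log2 change in TU_4d over Input_MuSC for every tested member of 17 gene lists, with a black bar at each list median and lines at the medians of all tested chosen genes (-0.92) and all tested genes (-0.18). The satellite cell, immediate early and NF-kB medians lie at -3.26, -3.13 and -2.75, and those of interferon and ribosomal protein genes at 0.34 and 0.96, both below 0 with library sizes from all reads.

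Fewer of the chosen genes were called higher in the tagged RNA, and nothing is read from that. The rule left out genes at least 2 times as high in whole muscle as in the isolated cells. Of the 4939 genes tested that it left out, 3833 were called at least 2-fold higher. Of the 1592 chosen genes that rose, 278 did so at least 2-fold. Of these 84.5% were protein-coding in GENCODE, near the 86.8% of all chosen genes tested. The largest named rise was that of Cenpb (chr2:131177291-131180012 on the minus strand of mm10), a protein that binds centromeric repeats. It had 36.01, 34.6, 37.8 and 38.3 RPKM in TU_4d and 3.45, 4.00, 4.69 and 4.49 RPKM in Input_MuSC, 8.02-fold apart (log2 change 3.004 ± 0.08 SE, adjusted p = 3.74e-12). Whole muscle lay between, at 8.22 ± 0.0581 RPKM. Epn1, an endocytic adaptor, had 35.7, 34.3, 34.6 and 32.6 RPKM in TU_4d and 5.34, 6.26, 5.35 and 6.46 RPKM in Input_MuSC, a 5.49-fold rise. Capn1, the protease calpain 1, had 12.8, 13.1, 13.2 and 14.1 RPKM in TU_4d and 1.62, 2.21, 2.11 and 2.16 RPKM in Input_MuSC. Against Input_muscle Cenpb, Epn1 and Capn1 were also higher, by 2.09, 1.59 and 2.15 on the log2 scale. Taf10, a subunit of the general factor TFIID, rose 5.10-fold. The kinase Mapkapk2, which acts below p38, rose 4.89-fold and so did Ccnk, the cyclin of CDK12 and CDK13. Gsk3a, a kinase of glycogen synthesis, the splicing regulator Arglu1 and the zinc finger factor Maz rose by 1.74, 1.73 and 1.88. All 9 kept their rise with library sizes from all reads.

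Of 65 ribosomal protein genes tested, 64 were higher in TU_4d than in Input_MuSC, with a median log2 change of 0.96, but with library sizes from all reads 49 were lower and 10 higher. Rps15a, of the small subunit, had 24.7, 23.9, 25.3 and 26.7 RPKM in TU_4d and 6.79, 6.67, 7.58 and 7.57 RPKM in Input_MuSC, 3.35-fold apart with no overlap. Rpl7, of the large subunit, had 188, 187, 192 and 198 RPKM in TU_4d and 60.3, 60.1, 66.8 and 66.1 RPKM in Input_MuSC. Both rises held with library sizes from all reads, at 0.38 and 0.18 on the log2 scale. The 1 exception was Rpl3, at 82.9 RPKM in TU_4d and 224 RPKM in Input_MuSC (log2 change -1.43), named after its value was seen. Against whole muscle 60 of the 65 were higher and 1 lower, with a median of 0.70. Of all chosen genes tested there 35.74% were higher and 46.64% lower, with a median of -0.08. Many ribosomal protein genes have processed copies in the genome, which can share reads, so single values are uncertain.

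Among the chosen genes, interferon-stimulated ones, which cells switch on when they sense viral nucleic acid, split in 2 directions. Of 14 tested, 8 were higher and 5 lower in TU_4d than in Input_MuSC, with a median of 0.34, or -0.95 with library sizes from all reads. The rule kept 15 of the 23 listed genes. All 23 summed to 700.4 to 777.1 RPKM in TU_4d and 350.6 to 367.5 RPKM in Input_MuSC. Their sum was 543.5 to 725.6 RPKM in MuSC_ctrlAM and 868.8 to 923.1 RPKM in Input_muscle. Isg15, a ubiquitin-like protein, had 20.9, 26.2, 30.7 and 30.8 RPKM in TU_4d and 5.10, 4.97, 5.22 and 4.91 RPKM in Input_MuSC. Its 4.93-fold rise (log2 change 2.30 ± 0.10 SE, adjusted p = 6.38e-10) held with library sizes from all reads, at 0.96. Irf7, the factor that amplifies the response, had 12.7, 14.9, 16.1 and 16.3 RPKM in TU_4d and 2.84, 2.95, 2.87 and 3.38 RPKM in Input_MuSC, a 4.41-fold rise. Usp18, which removes Isg15 from proteins, Rsad2, an antiviral enzyme, and Ifit1, which binds viral RNA, rose by 1.42, 1.26 and 1.25. These 3 were no longer called higher with library sizes from all reads, and Ifit1 then stood at -0.06. Ifih1, a sensor of viral RNA, and Stat2, which carries the interferon signal, fell by 1.48 and 1.11. Against whole muscle 12 of the 14 were higher in TU_4d and 1 lower, with a median of 0.64. Of all chosen genes tested there 35.74% were higher and 46.64% lower, with a median of -0.08. The interferon element was found in 8 of the 12 list members with a promoter in the table (66.67%).

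Among numbered gene models, 3 were chosen after their values were seen because they hold very high levels in the tagged RNA. Gm42418 averaged 12948 ± 1952 RPKM in TU_4d, 512 ± 49.4 RPKM in Input_MuSC and 28.5 ± 4.27 RPKM in Input_muscle. Gm23935 averaged 242512 ± 40531 RPKM in TU_4d, 6237 ± 2009 RPKM in Input_MuSC and 8319 ± 2299.7 RPKM in Input_muscle. Its model is 57 bases long, shorter than the 101 bp reads. RPKM divides by that length, so a high value there need not be a large share of the reads. Gm10800 averaged 33916 ± 6192 RPKM in TU_4d, 2359.96 ± 80.2 RPKM in Input_MuSC and 2562 ± 115 RPKM in Input_muscle. The levels in TU_4d lay above both other groups in every library. What these models carry was not examined.

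MuSC_ctrlAM cells, which the membership rule did not read, gave a second set of isolated cells. The 4 TU_4d libraries are the same in both comparisons, so their results are given side by side and not counted as agreement. Of 8845 chosen genes tested, 6485 were lower and 1183 higher in TU_4d, or 73.32% and 13.37%, against 47.8% lower and 41.6% higher of all 13798 genes tested. Their median log2 change was -0.87, and 303 were at least 10-fold lower. Of the 8845, 2777 passed the filter through MuSC_ctrlAM alone, as did 112 of the 303, so their TU_4d level was low by construction. The rule also read Input_muscle, and nothing is read from the imbalance of these counts either. With scaling factors from the chosen genes alone 3653 were lower and 3642 higher, and with library sizes from all reads 8201 and 195. Immediate early genes had a median of -4.12 here, with 35 of 37 lower. Fos averaged 4.63 ± 0.347 RPKM in TU_4d and 2126 ± 378 RPKM in MuSC_ctrlAM, and Egr1 2.72 ± 0.143 RPKM in TU_4d and 2461 ± 270 RPKM in MuSC_ctrlAM. Their log2 changes were -8.68 and -9.57, further from 0 than the -7.42 and -8.31 against Input_MuSC. The difference between the 2 sets of cells was not tested. Satellite cell genes had a median of -3.60, NF-kB and cytokine genes -3.23, Notch genes -2.71, heat shock genes -2.19 and ribosomal protein genes 0.88, which became -0.17 with library sizes from all reads.

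Marker lists of other cell types are counted here over the listed genes that the rule kept. The rule leaves out those at least 2 times as high in whole muscle as in Input_MuSC. Over all chosen genes tested, 76.17% were lower against Input_MuSC and 73.32% against MuSC_ctrlAM. Of 14 chosen endothelial genes tested against Input_MuSC, 7 were higher and 6 lower in TU_4d, while all 15 tested against MuSC_ctrlAM were lower. With library sizes from all reads all 14 and all 15 were lower, and with factors from the chosen genes 13 were higher and 1 lower against Input_MuSC, and 1 and 8 against MuSC_ctrlAM. The difference between the references was not tested. The summed level of all 22 listed endothelial genes was 1830 to 1902 RPKM in TU_4d, 641 to 752 RPKM in MuSC_ctrlAM and 247 to 269 RPKM in Input_MuSC. Interferon genes were higher in 4 of 14 cases and lower in 5 against MuSC_ctrlAM (median -0.16), but 10 higher and 3 lower with factors from the chosen genes (median 0.82), and 1 and 12 with library sizes from all reads (median -1.13). Isg15 averaged 27.2 ± 4.71 RPKM in TU_4d and 15.9 ± 3.38 RPKM in MuSC_ctrlAM (log2 change 0.76, adjusted p = 6.61e-04), a rise that turned to -0.29 with library sizes from all reads. Of the 20 fibro-adipogenic genes the rule kept 8, and 7 of these were lower against Input_MuSC and 8 against MuSC_ctrlAM. The whole list summed to 1712 to 1774 RPKM in TU_4d, 1101 to 1147 RPKM in Input_MuSC and 1665 to 2554 RPKM in MuSC_ctrlAM. Of the 15 smooth muscle and pericyte genes 8 were kept, with 5 lower against Input_MuSC and 8 against MuSC_ctrlAM. That whole list ran the other way, with 1753 to 1843 RPKM in TU_4d, 436 to 457 RPKM in Input_MuSC and 546 to 788 RPKM in MuSC_ctrlAM. Of 10 tenocyte genes 3 were kept, with 2 and 3 lower, while the whole list summed to 76.9 to 78.8 RPKM in TU_4d, 26.1 to 27.9 RPKM in Input_MuSC and 72.3 to 97.7 RPKM in MuSC_ctrlAM. Schwann cell genes were lower in 4 of 6 and 7 of 10 cases, and the whole list, at 105 to 111 RPKM in TU_4d, was below Input_MuSC (186 to 193 RPKM) and MuSC_ctrlAM (273 to 389 RPKM). Only 2 immune genes were kept, 1 of them lower against each. Of the muscle fibre list only Atp2a2 and of the adipocyte list only Fasn was among the chosen genes tested, while no mitochondrially encoded or red blood cell gene was.

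Whole muscle was the closest of the 3 references, as far as the size of changes goes. Of 6345 chosen genes tested against Input_muscle, 2959 were lower and 2268 higher in the tagged RNA, or 46.64% and 35.74%, against 56.4% lower and 28.1% higher of all 11347 tested. The median log2 change was -0.08, with 207 genes at least 2-fold lower and 466 at least 2-fold higher, and none 10-fold lower. The split turned with scaling factors from the median of ratios over all tested genes, which move the median of all genes by 0.22, to 2078 lower and 3169 higher, and with library sizes from all reads to 2241 and 2990. It also turned with no filter, to 3297 lower and 6572 higher, with a membership ratio of 1, to 1568 and 1724, and with factors from the chosen genes, to 2589 and 2659. Of the 466 genes, 55.6% were protein-coding, 21.2% pseudogenes and 16.5% other RNAs, against 92.9%, 2.93% and 3.01% of all chosen genes tested. Their gene models had a median length of 1469 bases, against 4151 for all chosen genes tested. A gene could pass the filter through TU_4d alone, and its Input_muscle level was then low by construction. This holds for 754 of the 6345 genes tested, and was not counted within the 466. Nothing is read from the make-up of the 466. Immediate early genes were 14 higher and 11 lower of 31 (median 0.07), NF-kB and cytokine genes 5 higher and 15 lower of 22 (median -0.35), and heat shock genes 2 higher and 15 lower of 18 (median -0.55). With median-of-ratios factors over all genes these became 19 and 9, 6 and 11, and 3 and 11. Among genes described above, Il6, Notch3, Fgfr4, Col4a1 and Col5a3 were higher than in whole muscle, and Fos, Egr1, Dusp1, Heyl and Vcam1 lower. Il6, Notch3 and Fgfr4 were under 1 RPKM in Input_muscle and passed the filter through TU_4d alone, so nothing is read from their rise.

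Base composition followed the calls in all 3 comparisons. Chosen genes that were higher in TU_4d than in Input_MuSC had a median GC content of the longest transcript of 52.4%, against 47.3% for those that were lower. With the tested genes cut into 10 equal groups from low to high GC, the share called higher was 7.55% in the lowest group and 35.9% in the highest against Input_MuSC. It was 6.63% and 26.9% against MuSC_ctrlAM, and 23.5% and 71.6% against Input_muscle. The share called lower was 86.5% in the lowest group and 54.7% in the highest against Input_MuSC. The part of GC content in any single gene's change was not tested, and all genes share the same libraries.

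**Figure D3:**
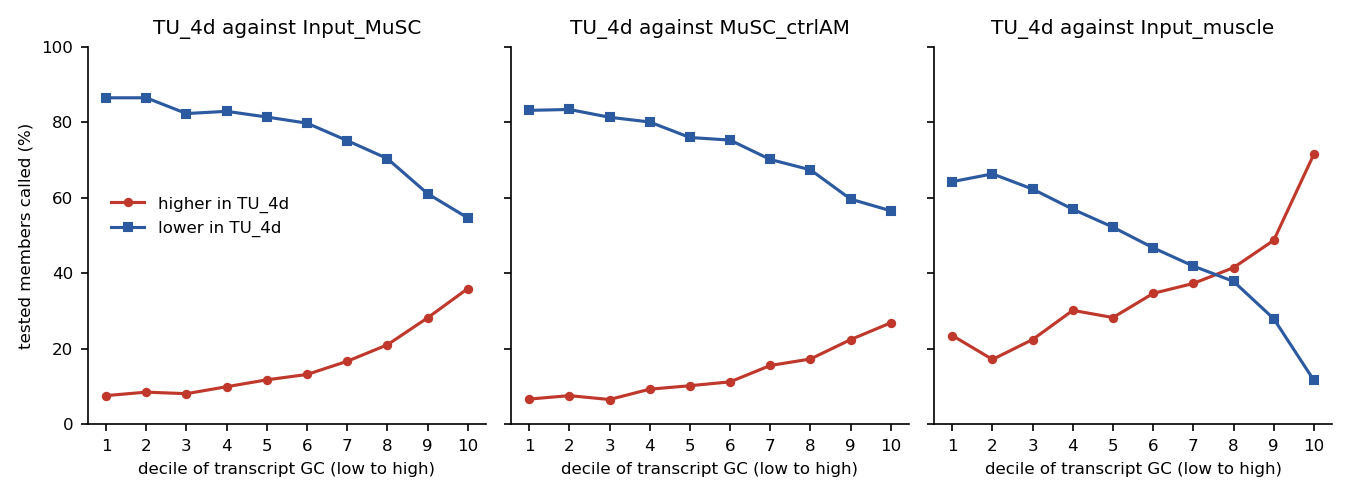
Percent of tested chosen genes called higher or lower in TU_4d, by 10 equal groups of transcript GC content from low to high, against each of Input_MuSC, MuSC_ctrlAM and Input_muscle. The share called higher reaches 35.9%, 26.9% and 71.6% in the highest group.

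The levels after shorter labels place the 4-day values in a series, given as description with no test. Fos averaged 15.4 ± 0.258 RPKM after 6 h of label, 7.78 ± 0.235 RPKM after 1 d and 4.63 ± 0.347 RPKM after 4 d. Jun had 218 ± 13.9, 73.2 ± 1.76 and 45.1 ± 2.40 RPKM over the same times, and Errfi1 68.1 ± 5.68, 14.3 ± 0.631 and 14.6 ± 0.903 RPKM. Sdc4, a syndecan of satellite cells, had 118 ± 9.59 RPKM after 6 h, 19.2 ± 1.10 RPKM after 1 d and 17.9 ± 0.941 RPKM after 4 d, against 18.4 ± 0.410 RPKM in Input_muscle. Myf5 had 9.40 ± 0.461, 1.36 ± 0.271 and 1.26 ± 0.434 RPKM. In each of these genes the 6 h libraries were the highest of the 3 in vivo labels, and all were below the 418 RPKM of Jun, 435 RPKM of Errfi1, 644 RPKM of Sdc4 and 76.0 RPKM of Myf5 in Input_MuSC. Not every gene lower at 4 d had this order. Egr1 averaged 4.76, 4.98 and 2.72 RPKM after 6 h, 1 d and 4 d, and Nppc 0.811, 1.51 and 1.75 RPKM. Per1, a clock gene, had 21.4 ± 2.34 RPKM after 6 h, 2.42 ± 0.122 RPKM after 1 d and 2.71 ± 0.217 RPKM after 4 d, so that its 6 h level was above the 12.6 ± 1.31 RPKM of Input_MuSC.

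Among the rises the series ran the other way or had no order. Cenpb averaged 20.9 ± 1.41 RPKM after 6 h, 27.6 ± 1.43 RPKM after 1 d and 36.7 ± 1.71 RPKM after 4 d, and Rps15a 12.7 ± 0.463, 15.8 ± 1.01 and 25.1 ± 1.17 RPKM. Capn1 was at 6.03 ± 0.399, 13.6 ± 0.914 and 13.3 ± 0.544 RPKM, reaching its 4 d level within 1 d. Isg15 had 4.17 ± 0.534, 4.84 ± 0.345 and 27.2 ± 4.71 RPKM, and Irf7 4.14 ± 0.310, 2.99 ± 0.135 and 15.0 ± 1.62 RPKM. Both were high in the 4 d libraries and near the Input_MuSC level at the shorter times.

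**Figure D4:**
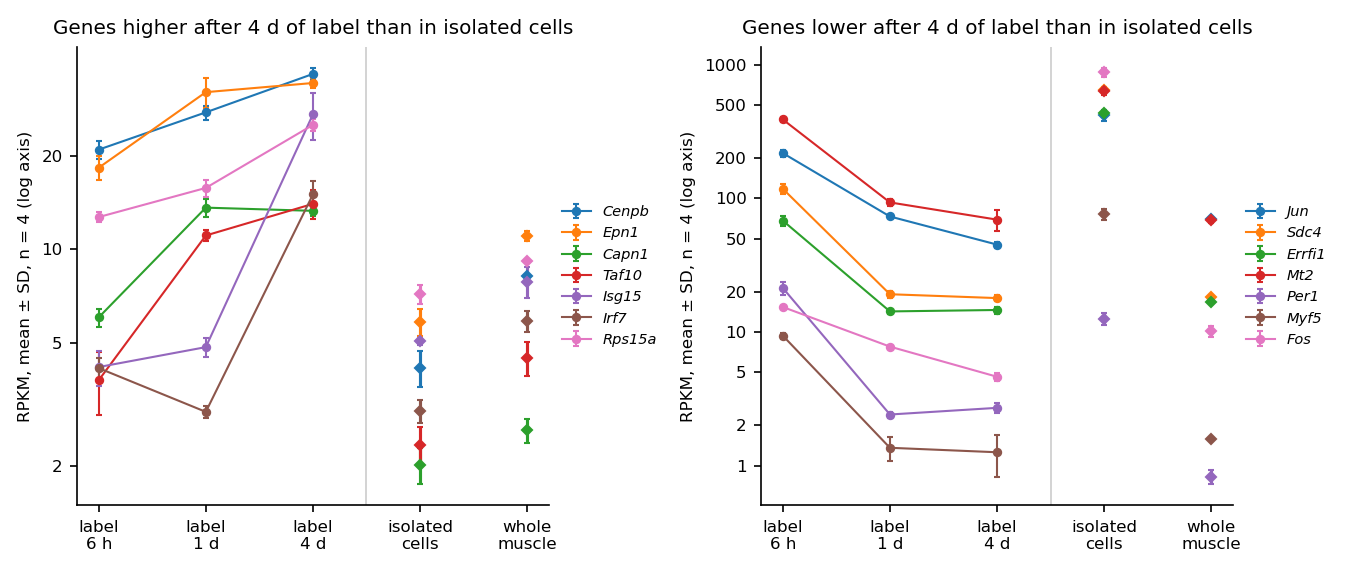
Mean RPKM ± SD (n = 4) on a log axis after 6 h, 1 d and 4 d of label, in isolated cells (Input_MuSC) and in whole muscle (Input_muscle), for 7 genes that were higher (left) and 7 that were lower (right) after 4 d than in Input_MuSC. Isg15 and Irf7 reach 27.2 and 15.0 RPKM at 4 d, while Jun, Sdc4, Errfi1 and Myf5 are highest at 6 h among the 3 in vivo labels.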

How the data were processed

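Polyadenylated RNA of mouse hindlimb muscle and its stem cells was sequenced from 500 pg of RNA per library as 101 bp paired reads after 13 to 15 cycles, per the labels' protocols. The authors deposited RPKM values per gene for 32 libraries, of which 8, 4 in each group, enter each fit. The submitters' processing notes name mm10, Trim Galore, STAR, Subread's featureCounts and edgeR. For their versions and for strand use in counting, nothing is given in the sources used here. Multiplied back by gene length and depth, the deposited RPKM gave whole reads (tolerance 0.1 read), and with them the depths and the authors' scaling. Of 1488 genes without a symbol, 1350 were named from GENCODE.

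Tests ran in limma 3.58.1 (R 4.3.3) with trend on log2(RPKM + 0.5) of the groups compared, over genes that reached 1 RPKM in 3 or more of the libraries compared, with Benjamini-Hochberg adjustment over all genes tested and a call under 0.05. All adjusted p, SE and fold changes are from this fit, and the added 0.5 shrinks the fold of low genes. The fit was checked on simulated data. Levels are means ± SD of 4 libraries. The comparisons share the TU_4d libraries.

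The chosen genes and the gene lists, immediate early, ERK feedback, heat shock, NF-kB and cytokine, integrated stress, satellite cell, Notch, niche matrix, Id and BMP, myogenic, cell cycle, cyclins and their inhibitors, ribosome biogenesis, glucocorticoid and FoxO, circadian, interferon, ribosomal protein, mitochondrially encoded and 9 marker lists, were picked with earlier results of these data known. Named genes are those with the largest rises and falls at 5 RPKM or more without overlap between groups, those raised over both Input_MuSC and Input_muscle, list members by adjusted p, and a few fixed genes. List members outside this rule, such as those that went against a list, were named after their values were seen. Deviations of same-numbered libraries of TU_4d and another group had r from 0.0290 to 0.110 for Input_MuSC and 0.0407 to 0.237 for Input_muscle. For MuSC_ctrlAM r ran from -0.0961 to 0.144. The labels name no pairs, so numbers were not used as pairs in the main fit. Whether the numbers stand for pairs was not settled, and a replicate block was run beside it. Alternatives were the pseudocount, the filter, other scaling factors, limma-voom on the recovered reads, all groups in 1 fit, a replicate block, each library left out and a stricter membership ratio. The other steps ran in Python 3.11.15 with pandas 2.3.3, numpy 2.4.6 and, for figures, matplotlib 3.10.9.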

Additional observations from a re-analysis of the deposited data

Results flagged for a closer look

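In 54 groups of 4 libraries whose values are listed for a gene, the gap from the most distant library to its nearest neighbour was taken as a share of the group's range and set against Dixon's limit for 4 values. Chance passes this limit in about 1 group of 20, and 5 groups passed. Myf5 in TU_4d had a share of 0.983, with 0.611 RPKM in replicate 4 and 1.47 to 1.48 RPKM in the others. Pax7 was lowest in the same library, at 0.130 RPKM, with a gap that did not pass. Myf5 in Input_MuSC had a share of 0.846, with 86.5 RPKM in replicate 2 and 71.6 to 73.9 RPKM in the others. Hspa1a in Input_MuSC had a share of 0.889, with 795 RPKM in replicate 2 and 710 to 719 RPKM in the others. Dnajb1 in TU_4d had a share of 0.956, with 9.48 RPKM in replicate 3 and 10.3 RPKM in the others. Capn1 in Input_MuSC had a share of 0.832, with 1.62 RPKM in replicate 1 and 2.11 to 2.21 RPKM in the others. Each of these genes kept its call without the library concerned.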

How the results depend on the processing

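Counts of chosen genes are given as lower and higher in TU_4d. Against Input_MuSC they were 2510 and 831 with a filter of 5 RPKM, 4503 and 4430 with median-of-ratios factors from the chosen genes, and 9649 and 114 with library sizes from all reads. Against MuSC_ctrlAM they were 2788 and 542, 3653 and 3642, and 8201 and 195 under the same settings. Against Input_muscle they were 1543 and 696 with the stricter filter, 3297 and 6572 with no filter and 1991 and 1480 with all groups in 1 fit. With a membership ratio of 1, 374, 345 and 1724 were higher against Input_MuSC, MuSC_ctrlAM and Input_muscle, and 1568 lower against Input_muscle. With a ratio of 0.5, 5314 and 54, 4088 and 99, and 569 and 1068 were lower and higher against the same 3 groups. The replicate block gave 7534 and 1591 against Input_MuSC, 6493 and 1191 against MuSC_ctrlAM and 3002 and 2289 against Input_muscle. Without each library in turn, counts ran from 7259 to 7521 and 1530 to 1588 against Input_MuSC, 5766 to 6624 and 1086 to 1401 against MuSC_ctrlAM, and 2818 to 2941 and 2114 to 2296 against Input_muscle. Other pseudocounts, median-of-ratios factors over all genes and limma-voom moved no count past 1.5 times.

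List medians against Input_MuSC turned positive with factors from the chosen genes for the myogenic (0.12), integrated stress (0.31), cyclin and inhibitor (0.35), cell cycle (0.026), ribosome biogenesis (0.35), glucocorticoid and FoxO (0.36), circadian (0.58), smooth muscle (0.13) and Schwann (0.54) lists. With library sizes from all reads those of interferon (-0.95), endothelial (-1.14) and ribosomal protein genes (-0.45) turned negative, and Hsf1 (-0.29), Nfkbib (-1.15), Cdh4 (-0.56), Dll4 (-0.42) and Ifit1 (-0.059) reversed. Of 1310 values of named genes against Input_MuSC under the alternatives, 1299 kept direction and call, while 12 against MuSC_ctrlAM (in 9 genes) and 38 against Input_muscle (in 17) did not. The cause was not tested. In the main fit against Input_MuSC, 2043 of the chosen genes were below the filter and were not tested.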
